A study of Mus musculus with 2 samples.

Results

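The contacts described here join 2 stretches of mouse chromosome 1 that lie next to each other and were separated by a boundary bin: the domain that holds En1, from 122470001 to 123090000 (mm9), and the domain that holds Insig2, Ccdc93, Htr5b and Ddx18, from 123100001 to 123470000. All pairs of 10 kb bins with 1 end in each domain were taken, 62 bins of the En1 domain (rows) by 37 bins of the Insig2-Ddx18 domain (columns), which gave 2294 of the 113050 bin pairs of the map. Within them, the 2 rows from 122480001 to 122500000 had been noticed beforehand as a stripe of frequent contacts. Domain edges and stripe were picked from the same contact values that are given below, so these values describe the block and no test was made on them.

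The map came from limb buds of wild-type mouse embryos at E10.5 of development, with forelimbs and hindlimbs listed together as the tissue of each of 2 samples. No allele or agent was named, and the samples carry no contrast with another group. The titles of both carry the same replicate label, Rep2, so they were not taken as independent replicates. Both samples had been merged into 1 map, so the values are the authors' pooled values and have no SD and no n. The stated question is which elements keep En1 expressed during limb development. Capture Hi-C counts pairs of DNA fragments that were joined because they lay close together in the fixed nucleus, in a library enriched for 1 chosen region. Whole dissociated limbs were used, so each value averages all cells of the limb, and a contact map holds no expression values against which the tissue could be checked. The map covered chromosome 1 from 119650001 to 124400000 with 6484654 read pairs in 475 bins, of which the block held 127097 (1.96%). Bin totals ran from 6844 to 54423 read pairs among the rows and from 9150 to 42373 among the columns, around a median of 22376 in the map. None of the map's 56 low bins (under 25% of that median) lay in the block.

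Mammalian chromosomes fold into domains within which DNA makes contact more often than across the domains' boundaries. Cohesin is thought to extrude loops of chromatin until it meets bound CTCF, a zinc finger protein, and a position that halts it on 1 side while the other side keeps moving shows up in a contact map as a stripe. En1 codes for Engrailed-1, a homeobox transcription factor that is made in the ventral ectoderm of the limb bud and is needed for dorsoventral patterning. In the other domain, Insig2 encodes a protein of the endoplasmic reticulum that holds back sterol synthesis, Ccdc93 a coiled-coil protein of an endosomal sorting complex, Htr5b a serotonin receptor and Ddx18 a DEAD-box RNA helicase.

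En1 (ENSMUSG00000058665.7, plus strand) spans 122498995 to 122505873, so its transcription start falls into the upper stripe bin, 122490001 to 122500000. The lower stripe bin, 122480001 to 122490000, overlaps no annotated gene and ends 9 kb below that start. Insig2 (ENSMUSG00000003721.8, minus strand, 123200930 to 123229166), Ccdc93 (ENSMUSG00000026339.12, plus strand, 123327626 to 123403037), Htr5b (ENSMUSG00000050534.8, minus strand, 123406419 to 123425042) and Ddx18 (ENSMUSG00000001674.5, minus strand, 123450412 to 123464566) have their starts 730, 829, 926 and 966 kb above that of En1.

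Because stripes and boundaries are often found at CTCF sites, the bins were searched on both strands for 9 letters of the core of the CTCF motif, AGGNGGCGC. The letters occurred in 40 of the 475 bins of the map (8.42%), in 4 of the 62 rows, in 4 of the 37 columns and in neither stripe bin. Matches outside exons are shown with the 9 letters in capitals, read 5′ to 3′ on the strand given, because they mark where the motif falls relative to the rows and columns that carried the contacts. The sequences are those of the reference assembly NCBIM37 (mm9).
Row 122510001, chr1:122510410-122510450, minus strand: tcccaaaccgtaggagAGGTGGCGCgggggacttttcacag
Row 122590001, chr1:122599854-122599894, plus strand: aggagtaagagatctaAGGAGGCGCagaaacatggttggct
Row 123070001, chr1:123077067-123077107, minus strand: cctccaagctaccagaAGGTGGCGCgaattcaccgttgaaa
Column 123160001, chr1:123168029-123168069, plus strand: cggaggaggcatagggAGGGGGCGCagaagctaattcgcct
Column 123290001, chr1:123295345-123295385, plus strand: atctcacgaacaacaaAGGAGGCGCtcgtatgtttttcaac
Column 123460001, chr1:123464599-123464639, minus strand: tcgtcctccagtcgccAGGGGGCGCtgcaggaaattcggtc

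All 6 lie between annotated genes. The match in column 123290001 lies in the column with the second highest contact of the stripe bins, an observed/expected value (explained below) of 7.26. The other matching columns lay below the median of all columns, 3.31. Column 123160001 had 2.985. The match in column 123460001 lies just beyond the start of Ddx18, in one of the 5 lowest columns, with 2.17. The 2 further matches were in exons, of En1 in row 122500001 and of Htr5b in column 123420001. That column, with 2.61, was also among the 5 lowest. The stricter AGGGGGCGC, a subset of these letters, was found in 11 bins of the map (2.32%), in 2 columns and in no row. The looser AGNNGGCGC, which includes both, was found in 103 bins (21.7%), among them 14 rows and 10 columns. With these looser letters 1 stripe bin had a match, in the En1 exon of bin 122490001. A match is a description of the sequence, not a measured site, and the absence of these letters from the lower stripe bin and from column 123110001 says only that they are not in those windows.

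With the looser letters, the bins around the lower edge of the En1 domain also held matches, all on the minus strand and between genes. They are shown because these bins are the ones whose contacts with the Insig2-Ddx18 domain were highest beside the stripe. The 14 rows with the looser letters ran from 0.644 in row 123000001, below expected, to 3.47 in row 122490001. Bins printed for their high contact cannot show whether the letters go with contact.
Bin 122450001, chr1:122458423-122458463: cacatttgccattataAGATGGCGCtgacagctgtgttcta
Boundary bin 122460001, chr1:122467729-122467769: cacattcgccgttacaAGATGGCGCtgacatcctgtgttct
Row 122470001, chr1:122472529-122472569: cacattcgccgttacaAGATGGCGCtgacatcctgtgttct

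The latter 2 stretches are identical over all 41 bases, and the first differs from them at 12. The 41 bases of the identical pair occur 2 times in the map region and those of the first 5 times, so the stretches are repeated sequence.

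The 2 stripe bins made contact with the Insig2-Ddx18 domain more often than was expected from distance and from the coverage of the bins. Their 74 bin pairs held 8284 read pairs, 2139 being expected, which gives an observed/expected value of 3.87 (exact Poisson 95% interval 3.79 to 3.96). The expected count of a pair was the mean balanced contact value of all pairs of the map at its distance, turned back into read pairs with the balancing factors of both bins. All intervals cover counting error only: PCR copies could not be told from independent molecules, and 1 merged map shows no spread between embryos. The lower stripe bin had 4516 read pairs against 1053 expected, 4.29 (4.17 to 4.42), and the bin of the En1 start 3768 against 1086, 3.47 (3.36 to 3.58). The higher contact was thus in the lower bin, which lies wholly upstream of the gene. The bin with the En1 start is itself mostly upstream sequence.

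The block as a whole held 127097 read pairs against 134383 expected, 0.946 (0.941 to 0.951), and the block without the stripe 118813 against 132244, 0.898 (0.893 to 0.904). Where these values lay relative to 1 depended on the expected value: with a mean taken only from pairs whose ends lie in different domains they were 1.21 and 1.16, and with distance alone 1.22 and 1.16. For the stripe itself the value was 3.83 and 5.21 under the same choices. The stripe bins made up 3.23% of the rows and held 6.52% of the block's read pairs (Wilson 95% interval 6.38 to 6.66%), where 1.59% were expected. Single pairs of the stripe held 29 to 430 read pairs with a median of 94, and those of the other rows had a median of 44. No pair of the block was empty.

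**Figure D1:**
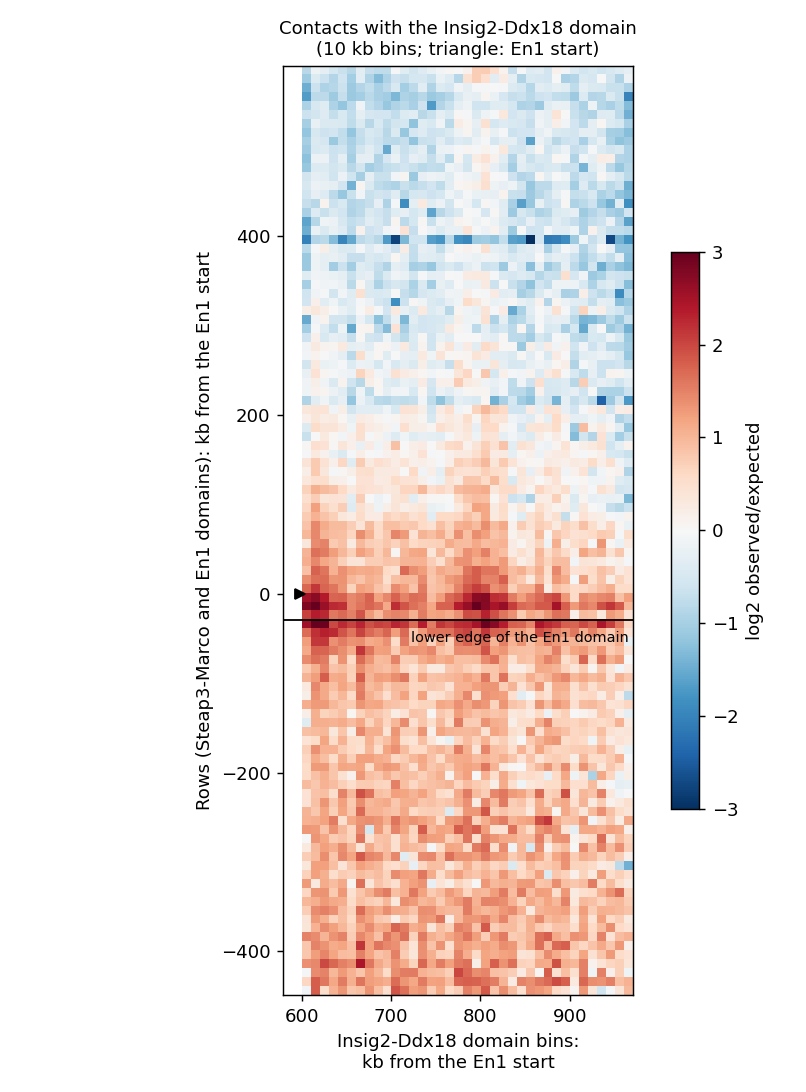
Each square is 1 pair of 10 kb bins, with bins of the Insig2-Ddx18 domain along the horizontal axis and bins of the En1 and Steap3-Marco domains along the vertical axis, both in kb from the En1 start, coloured by log2 observed/expected. The darkest red lies in the rows around the lower edge of the En1 domain, most of all near 616 and 796 kb, and the rows more than 206 kb above the En1 start are mostly pale or blue.

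The excess was not limited to the stripe bins. From the lower edge of the En1 domain, 20 rows in an unbroken run of 200 kb, 122470001 to 122670000, had intervals wholly above 1, and under other expected values the run held 18 to 24 rows. In all, 23 of the 62 rows lay above expected, 36 lay below and the intervals of 3 spanned 1. This split depended on the expected value, with 35 above and 18 below by distance alone, 37 and 13 by pairs between domains, and 29 and 27 by medians. The rows with more read pairs than expected had an excess of 20079 read pairs between them, of which the stripe bins carried 30.6%, or 19.6% by distance alone, 24.8% by pairs between domains and 25.5% by medians. The read pairs of the other rows, against their expected count, fell by 27363.5 in sum, and by this expected value the block as a whole did not exceed its expected count.

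After the stripe bins, the highest row was the lowest bin of the domain, 122470001, with 2374 read pairs and 2.86 (2.74 to 2.97). Row 122500001, which holds the rest of the En1 gene, had 2621 read pairs and 2.41 (2.32 to 2.51). Rows 122520001, 122510001 and 122540001 followed at 2.25, 2.22 and 1.95, of which the first pair had overlapping intervals. Values further above En1 were lower but did not fall evenly. Row 122600001 had 1.13 (1.08 to 1.19), the next row, 122610001, 116 kb above the start, had 1.48 (1.41 to 1.56), and row 122700001, 206 kb above it, had 1.08 (1.01 to 1.14). The 42 rows above the run had values from 0.428 to 1.16.

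The lowest rows all lay in the upper part of the domain. Row 122890001 had 371 read pairs and 0.428 (0.386 to 0.474), and with a total of 6844 it was also the row with the poorest coverage. Rows 123050001 and 123040001 had 0.572 and 0.617, row 122860001 had 0.640, and row 123000001, which overlaps the non-coding RNA gene B230209K01Rik, had 0.644. These rows overlap no coding gene. The last row of the domain, 123080001, had 0.803 (0.781 to 0.827) and the boundary bin beyond it, 123090001, 0.933 (0.912 to 0.955), so the shortest distances of the block did not carry the excess.

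**Figure D2:**
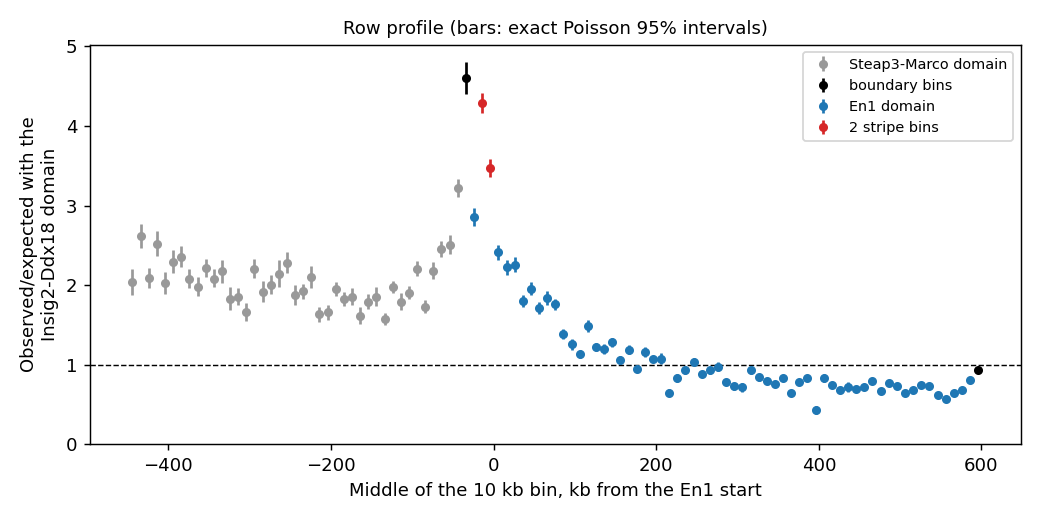
Each point is the observed/expected value of 1 10 kb bin over all 37 bins of the Insig2-Ddx18 domain, with exact Poisson 95% intervals, against the middle of the bin in kb from the En1 start. The boundary bin 122460001 (4.60) and the stripe bins (4.29 and 3.47) form the peak, the values fall to about 1 over 200 kb inside the En1 domain, and the bins of the Steap3-Marco domain on the other side stay between 1.57 and 3.22.

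Immediately outside the rows of the block, the boundary bin 122460001 had the highest value, with 2112 read pairs against 459.1 expected, 4.60 (4.41 to 4.80). Its total of 13865 was lower than those of the stripe bins, 32137 and 33802, and with an expected value from distance alone, which leaves coverage out, it had 2.78 where the stripe bins had 5.74 and 4.70. Bin 122450001, the last of the Steap3-Marco domain, had 3095 read pairs and 3.22 (3.11 to 3.33), and the next bins down had 2.51 and 2.45. By the main expected value the stripe bins therefore lay on the upper side of a peak that straddled the lower edge of the En1 domain, with row 122470001 as a dip of 2.86 between them and the boundary bin. With distance alone, bin 122450001 had 4.15 and row 122470001 had 3.07, so the lowest value there was that of the boundary bin.

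Coverage within row 122470001 was uneven. At 5 kb, bin 122470001 to 122475000 had only 1014 read pairs in all, 192 of them with the Insig2-Ddx18 domain, and a value of 6.01 (5.19 to 6.92). The other 5 kb bin of that row had 24376 in all, 2182 of them with that domain, and 2.94 (2.81 to 3.06). The lower value was thus that of the better covered bin. Inside the stripe, 3 of the 4 bins of 5 kb had similar values, 4.21 (4.03 to 4.39) in bin 122480001, 4.43 (4.25 to 4.61) in bin 122485001 and 4.00 (3.83 to 4.18) in bin 122490001. The remaining one, 122495001 to 122500000, holds the En1 start and had 2.78 (2.65 to 2.91). The first 5 kb bin of the gene body, 122500001, had 2.45 (2.32 to 2.59). At this finer size the drop therefore lay between bin 122490001 and bin 122495001. The latter holds the En1 start near its upper end and is otherwise upstream sequence.

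The stripe bins did not make more contact in every direction. With bins of lower coordinates at the same distances of 610 to 980 kb they had 872 read pairs where 1873 were expected, 0.465 (0.435 to 0.497), whereas at higher coordinates they had 8717 against 2197, 3.97 (3.89 to 4.05). Their pooled value within the En1 domain beyond 30 kb was 1.40 (1.38 to 1.42), or 2.28 with distance alone and 2.02 with pairs between domains, but it covers a peak at the top of that domain that is given with the balanced values. With the Steap3-Marco domain beyond 30 kb it was 0.451 (0.439 to 0.463), or 0.706 with an expected value from distance alone. Contact ceased to exceed expected shortly above the Insig2-Ddx18 domain. In the nearest 40 kb beyond it the value was 1.52 (1.31 to 1.74) from 201 read pairs, and in the rest of the map above it 0.943 (0.894 to 0.995).

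On the balanced scale, named KR by the submitters, the mean of the stripe bins to higher coordinates was, beyond 30 kb, highest at 580 and 590 kb, in the upper bins of the En1 domain, at 422.4 and 442 where the map's mean was 30.2 and 30.6. It fell to 211.5 at 610 kb, the shortest distance to the Insig2-Ddx18 domain, against 28.0. It was 69.4 at 700 kb, where the map's mean was 24.1 and the stripe's value to lower coordinates 11.1. At 800 kb the 3 values were 122, 19.3 and 10.46, and at 900 kb 67.2, 16.6 and 4.55. At 1100 kb, beyond the domain, the stripe bins had 9.35 to higher coordinates and 9.14 to lower ones, and the map 12.02. The rise at 800 kb stood above the values at 700 and 900 kb, and corresponds to the columns below Ccdc93 described next.

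**Figure D3:**
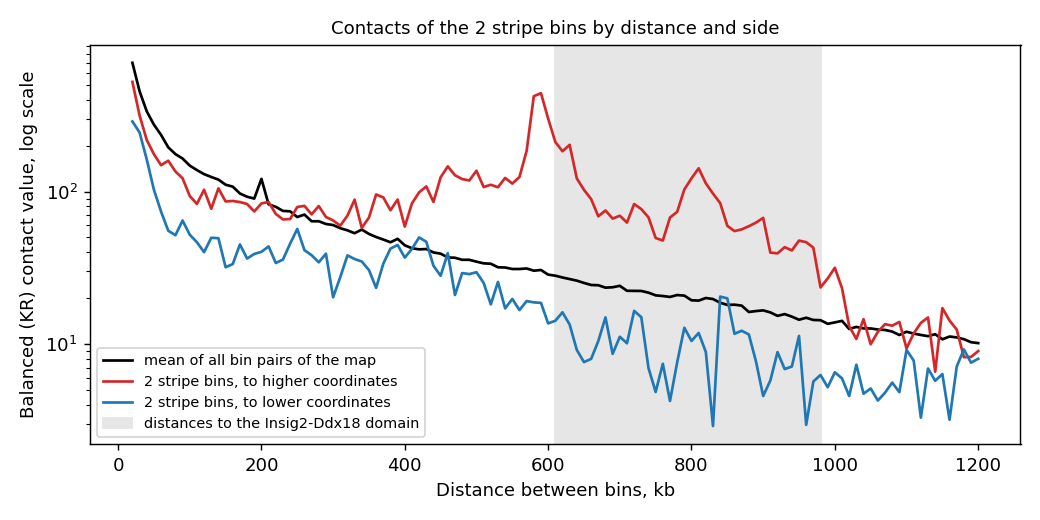
Mean balanced (KR) contact value, on a log axis, against the distance between bins in kb, for all pairs of the map (black) and for the 2 stripe bins to higher (red) and lower (blue) coordinates. Over the shaded distances of 610 to 980 kb the red line lies above the black one throughout, with 69.4 against 24.1 at 700 kb, and the blue line mostly lies below it.

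Every one of the 37 columns made contact with the stripe bins at more than 1.5 times expected by the lower bound of its interval, and this held for 36 under the expected value from distance alone and under that from pairs between domains. Values ran from 1.95 to 8.26 with a median of 3.31. The stripe was picked for high contact from these values, and the share of the map under this bound is not given, so the count only describes it. In the stripe bins the excess was spread along the whole Insig2-Ddx18 domain, highest at its near edge and at a second place inside it. The lower bin of the stripe exceeded the upper one in 29 of the 37 columns.

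The highest values lay at the near edge. Column 123110001 had 721 read pairs with the stripe, 430 and 291 in its lower and upper bin, against 87.3 expected, 8.26 (7.67 to 8.89). Its neighbours 123100001 and 123120001 had 208 and 585 read pairs, 6.31 (5.48 to 7.22) and 5.58 (5.13 to 6.05). These columns overlap no gene, and the nearest coding gene, Insig2, lies 81 kb from column 123110001. The boundary bin just below the domain, 123090001, had 746 read pairs and 8.31 (7.73 to 8.93). The near-edge columns thus lay beside the higher peak of the stripe in the upper bins of the En1 domain, at 580 and 590 kb. Values did not fall evenly from that peak, since column 123100001 was lower than the bins on both its sides.

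The second maximum lay inside the domain, below Ccdc93. Column 123290001 had 323 read pairs with the stripe, 177 and 146 in its lower and upper bin, against 44.5 expected, 7.26 (6.49 to 8.10). A match to AGGNGGCGC in this column is printed above, as are matches in columns with low values, and the column lies 28 kb from Ccdc93. With an expected value from distance alone, column 123120001 took its place as the second highest. The next column, 123300001, had 234 read pairs and 6.71 (5.88 to 7.63). Between the maxima the values fell to 2.07 (1.72 to 2.47) in column 123240001, 11 kb beyond Insig2, where 123 read pairs were counted.

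The other low columns lay beside Insig2 or in the upper part of the domain. The lowest was column 123400001, which overlaps the ends of Ccdc93 and Htr5b, with 126 read pairs and 1.95 (1.62 to 2.32). Columns 123460001, with the start of Ddx18, 123190001, next to Insig2, and 123420001, with the start of Htr5b, had 84, 223 and 124 read pairs and values of 2.17, 2.47 and 2.61. Beyond the upper edge of the domain, the boundary bin 123470001 had 44 read pairs and 1.65 (1.199 to 2.22), and bin 123480001 had 34 and 2.36 (1.63 to 3.29). Bin 123490001 had 75 and 1.82, and bin 123510001 had 25 and 0.764 (0.494 to 1.13). Contact thus fell unevenly over a few bins rather than at the edge bin alone.

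**Figure D4:**
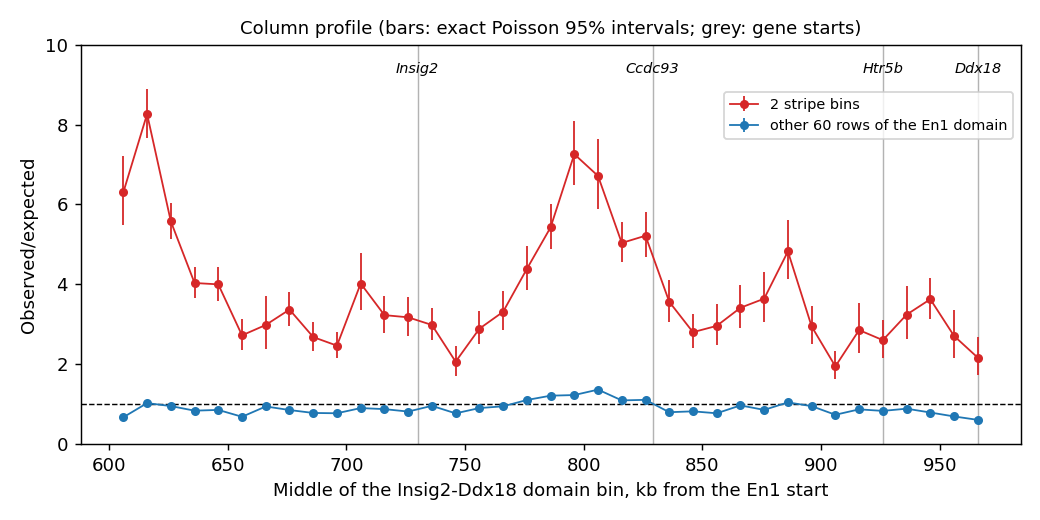
Observed/expected value of each 10 kb bin of the Insig2-Ddx18 domain with the 2 stripe bins (red) and with the other 60 rows of the En1 domain (blue), with exact Poisson 95% intervals, against kb from the En1 start; grey lines mark gene starts. The red line peaks at 8.26 near the lower edge of the domain and at 7.26 below Ccdc93 and stays above 1.9, while the blue line keeps between 0.610 and 1.37.

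The other 60 rows exceeded expected in 8 of the 37 columns, fell below it in 28 and had an interval that spanned 1 in the remaining one. Of the 8, 6 were neighbours from 123270001 to 123330000, at and around the second maximum of the stripe, and the others were 123110001 and 123380001. Values over these rows ran from 0.610 in column 123460001 to 1.37 in column 123300001. The split of columns depended on the expected value, with 23 of 37 above expected both by distance alone and by pairs between domains. Pooled, these 60 rows thus had their highest relative contact at the second maximum of the stripe. The 18 other rows of the run, taken alone, were highest at the near edge, with 2.37 in column 123110001. They had 2.31 in column 123300001 and 2.19 in column 123290001.

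The profiles of different rows ran alike along the columns. Spearman's rho was 0.81 between the 2 stripe bins, 0.78 between the stripe and the other 18 rows of the run, and 0.63 between the stripe and the 42 rows above the run. These are descriptions over 37 columns, which are neighbours on the chromosome and share the library and each column's balancing factor. The stripe's median was exceeded in 3 stretches of at least 3 neighbouring columns, which were chosen on these values. In the 5 columns from 123100001 to 123150000 the stripe had 5.48, the other rows of the run 1.91 and the rows above it 0.740. In the 7 columns from 123270001 to 123340000 the values were 5.24, 1.88 and 0.942, and in the 3 columns from 123360001 to 123390000 they were 3.91, 1.48 and 0.823. The other 22 columns had 2.86, 1.39 and 0.6995. For the rows above the run, the stretch below Ccdc93 had a higher value than the stretch at the near edge, although the stripe had similar values in both.

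The start bins of the 4 genes did not stand out from the columns around them. Together they had 713 read pairs with the stripe, 3.495 (3.24 to 3.76), and the other 33 columns had 3.91 (3.83 to 4.00). The start bin of Ccdc93, 123320001, had the highest value of the 4, with 336 read pairs and 5.22 (4.68 to 5.81), on the shoulder of the second maximum. That of Insig2, 123220001, had 169 read pairs and 3.18 (2.72 to 3.69), that of Htr5b 124 and 2.61 (2.17 to 3.11), and that of Ddx18 84 and 2.17 (1.73 to 2.68). The intervals of Insig2 and Htr5b overlapped, as did those of Htr5b and Ddx18.

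Between the start bin of En1 and the other start bins alone, 87 read pairs joined En1 to Insig2, 3.21 (2.57 to 3.96), and 146 joined it to Ccdc93, 4.39 (3.71 to 5.16). To Htr5b there were 61, 2.50 (1.91 to 3.21), and to Ddx18 46, 2.36 (1.73 to 3.14). The order was the same as for the stripe. With the 60 other rows, the same 4 start bins had 0.818, 1.11, 0.834 and 0.610, so only that of Ccdc93 exceeded expected there.

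A pair was called enriched when it had at least 10 read pairs and a lower 95% bound of observed/expected above 1.5. By this rule 230 of the 2294 pairs (10.0%) were called, where 5.09% of all pairs of the map at the block's distances were. In the stripe 70 of 74 (94.6%) were called, beside 6.12% of the map's pairs at the stripe's distances, and in the other rows 160 of 2220 (7.21%). The rule that picked the stripe used these same values, and nothing further is read from its share. The called pairs lay in 15 of the 62 rows, all between 122470001 and 122630000, with 27 of 37 columns called in row 122470001, 36 in 122480001, 34 in 122490001, 21 each in 122500001 and 122510001, and 20 in 122520001. The count fell to between 1 and 16 in the rows above these that had any call.

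The 8 pairs with the highest lower bounds all started in the stripe bins and ended in 1 of 5 columns, the 3 of the near edge and the pair at the second maximum. The pair 122480001 with 123110001, 630 kb apart, had 430 read pairs against 42.9 expected, 10.0 (9.10 to 11.02), and a balanced value of 267 where the mean of the map at that distance was 26.6. The pair 122480001 with 123290001 had 177 read pairs and 8.02 (6.88 to 9.29). The En1 start bin had 291 read pairs and 6.56 (5.83 to 7.36) with column 123110001, 116 and 6.76 (5.58 to 8.10) with 123300001, and 146 and 6.51 (5.50 to 7.66) with 123290001. The remaining 3 pairs joined the lower stripe bin to columns 123100001, 123300001 and 123120001 at 6.92, 6.67 and 5.99. Near the threshold, the pair 122580001 with 123120001 was just inside, with 123 read pairs and 1.82 (1.51 to 2.17), and the pair 122470001 with 123220001 just outside, with 42 read pairs and 2.08 (1.498 to 2.81).

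The calls were also compared with their surroundings. When a pair also had to exceed 1.5 times the mean of the pairs 2 to 5 bins away, 31 of the 230 remained, 23 of them in the stripe. Such a local comparison removes stripes by its construction, so the fall is partly built in. The share of the map's pairs that pass it is not given, so the count is not set beside a background. At 5 kb the columns with the highest stripe values were 123110001 at 8.72 (7.89 to 9.61), 123115001 at 7.84 and 123300001 at 7.66, followed by 123105001 at 7.36, 123295001 at 7.07 and 123290001 at 6.72. The second maximum thus spanned the neighbouring 5 kb bins from 123290001 to 123305000, and the match to the motif core lies in the middle one of these. The 3 highest intervals of this maximum overlapped, so its top could not be placed in 1 of them.

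The number of cutting sites in the stripe bins was near the median of the map, and their GC content was high. DpnII cuts at 26 and 22 sites in the lower and upper stripe bin, where the median of the map was 25 and the rows ran from 12 to 37. The GC content was 49.1% and 52.1%, above the map's median of 43.9%, and the upper value was the highest of the rows, whose lowest was 40.3%. Outside the stripe, only row 122500001, with 50.5%, lay above the lower stripe bin. The part of cutting sites and GC content in the result was not tested.

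Of the blocks between other neighbouring domains of the map, none had a value as high as that of the En1 and Insig2-Ddx18 domains by the main expected value. Domains called from insulation scores gave 8 such blocks, with values from 0.531 to 0.896, from 0 to 3.54% of pairs called, and a highest single bin of 0.775 to 2.20. With an expected value from pairs between domains, however, the highest of the other blocks had 1.31 and this block 1.21. The order also changed at matched distances. Over the distances that both blocks hold, the En1 and Insig2-Ddx18 block had 0.946 against 0.660 for the Steap3-Marco and En1 domains, across the boundary at 122460001, and 0.834 against 0.531 for the Insig2-Ddx18 domain and the domain above it. It had 0.864 against 0.692 for the domains of Gli2 and Inhbb, and 0.939 against 0.896 for those of Inhbb and Ralb. It was lower than the block of the Tsn-Clasp1 and Tcfcp2l1 domains, 0.735 against 0.872, and than that of the Dbi and Steap3-Marco domains, 0.764 against 0.867. The other 2 blocks had 0.737 and 0.849, where this block had 0.759 and 0.848. With 1 map, these differences have no test.

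In a ranking of single bins, the stripe bins were near the top together with the bins around them. For each of 419 bins that are not low, contacts at 610 to 980 kb were summed to each side where the map allowed, which gave 659 profiles with a median of 0.942, of which 36 exceeded 2. The boundary bin 122460001, with its lower total, ranked first to higher coordinates, at 4.93 (4.74 to 5.13). The lower stripe bin ranked 2 at 4.49 (4.37 to 4.62), bin 122450001 ranked 3 at 3.54, and the bin of the En1 start ranked 4 at 3.44 (3.34 to 3.56), with an interval that overlapped that of bin 122450001 (3.43 to 3.66). Row 122470001 ranked 6 at 3.13, and bins 122440001 and 122430001 ranked 9 and 12 at 2.71 and 2.52. Column 123110001 ranked 5 to lower coordinates, at 3.15 (3.05 to 3.26). To lower coordinates, the 2 stripe bins ranked 608 and 625 of 659, at 0.483 and 0.447. The ranking was made with the stripe already known from the same values and is a description.

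The Insig2-Ddx18 domain also made frequent contact with the domain on the far side of En1. The 41 bins of the Steap3-Marco domain, which holds the starts of Steap3, a ferrireductase gene, C1ql2, a C1q-like gene, and Marco, a scavenger receptor gene, all had intervals above 1 with it, from 1.57 to 3.22 with a median of 2.00. In sum these 1517 pairs had 54135 read pairs against 26561 expected, 2.04 (2.02 to 2.06), although they crossed both boundaries of the En1 domain. The value ran from 1.88 to 2.43 under the alternatives, which were chosen for it after it was seen. The upper 50 kb of that domain had 2.42 and its other bins 1.96, and the start bins of Steap3, C1ql2 and Marco had 2.17, 2.14 and 2.21.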

How the data were processed

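Fixed limb cells of 2 wild-type samples were digested with DpnII, ligated and captured with custom probes, per the labels' protocols; probe positions were not used here. The submitters' processing notes name Bowtie2 2.3.4.1, Juicer 1.7.6, SAMtools and mm9, and the deposited file names HiCUP and a mapping quality minimum of 30. The authors deposited raw counts of read pairs per bin pair and a balanced contact signal, KR, read here as Knight-Ruiz balancing, for both samples merged. Genes came from GENCODE M1 on NCBIM37, the same assembly as mm9.

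Expected counts were the mean KR value per distance times both bins' balancing factors, taken from the ratio of raw to KR values. Intervals were exact Poisson or Wilson at 95%, with Python 3.11.15, numpy 2.4.6 and scipy 1.17.1. Code was tested on simulated data. Domains for other blocks came from insulation scores (150 kb window, prominence at least 0.2). Neither samples nor groups could be compared, so no p-value was computed. Only counting error could be given, which is set by the read pairs beside each value, and replicates add nothing to it. Spread between embryos and error of the expected values are not in the intervals. Named were the stripe bins, the 5 highest and 5 lowest other rows, the 5 highest and 5 lowest columns to the stripe, the 8 pairs with the highest lower bounds, gene start bins and bins at domain edges. Bins and the stretches of columns named beyond that were chosen after their values were seen. Members, lists and rules were chosen with earlier results of these data known. Tables of 50 kb bins were not used.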

Additional observations from a re-analysis of the deposited data

How the results depend on the processing

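No alternative measures the difference between embryos, and moves were judged against counting error. No paired analysis was possible because all samples share 1 group and 1 map, and leaving out each sample was not run because the map is merged. Except where the construction shows it (fewer pairs, looser or stricter rules), the cause was not tested. The stripe's value of 3.87 stayed far above 1 throughout. With distance alone it was 5.21, and it was 4.50 with medians per distance, 3.64 with low bins left out, 4.03 with the block left out of the expected value, and 3.79 to 3.94 otherwise. The side of 1 on which the block lay was not stable: its 0.946 became 1.22 with distance alone, 1.08 with medians, 1.21 with pairs between domains and 1.01 without the 4 upper bins of the En1 domain. From KR values it came to 0.931, from 5 kb bins to 0.926 and from 25 kb bins to 0.985. It was 0.976 without pairs under 100 kb and 0.957 without 1 bin at each side of the boundary. The block without the stripe, at 0.898, went to 1.16, 1.02 and 1.16 with distance alone, medians and pairs between domains. From KR values, 5 kb bins and 25 kb bins it was 0.887, 0.879 and 0.919, and without pairs under 100 kb, the edge bins or the 4 upper bins it was 0.925, 0.908 and 0.9501. The stripe's share of 6.52% became 6.07% on KR values, 8.68% with 25 kb bins, where other bins make up the stripe, 6.92% without pairs under 100 kb, 6.71% without the edge bins and 7.52% without the 4 upper bins. Of called pairs, 230 in the main setting, there were 350 and 123 with thresholds of 1.2 and 2, 31 with the local ring and 455 with distance alone, of which 209 were among the 230. The map's share under these other settings is not given, so these counts show only how far the block's count moved. The stripe's value to lower coordinates, 0.465, was 0.533 with distance alone and 0.540 with medians, and with medians its value above the Insig2-Ddx18 domain beyond 40 kb went from 0.943 to 1.05. The 4 gene start bins, at 3.495, had 4.72 and 4.04 with distance alone and medians. The highest of the other blocks, 0.896, went to 1.06, 1.02 and 1.31 with distance alone, medians and pairs between domains. It was 0.907 on KR values, 0.911 without low bins and 0.918 with a 250 kb insulation window, which gave 5 blocks. With the motif AGNNGGCGC, 1 match lay in the stripe bins, against 0 with AGGNGGCGC.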
